A study of Homo sapiens with 8 samples.

Results

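The genes described here are the 6 CXC chemokines whose mRNAs encode neutrophil attractants, CXCL1, CXCL2, CXCL3, CXCL5, CXCL6 and CXCL8, together with CXCL16 and the CC chemokine CCL20. All 8 were found by symbol among the 19475 entries of the mRNA table, and 1 of 70751 m6A peaks carried the name of one of them. The genes were selected on their mRNA FPKM in these same libraries, with the difference between F. nucleatum and Control known, so their mRNA levels are given as a description, without a test. The study compared HCT116 cells, an established human colorectal carcinoma line, after treatment with the bacterium Fusobacterium nucleatum or with PBS as Control. According to its methods the cells were exposed for 2 h at a multiplicity of infection of 100. N6-methyladenosine (m6A), in which an adenosine of the mRNA carries a methyl group, was mapped by sequencing fragments of 60 to 200 nt before (input) and after (IP) pull-down with an m6A antibody. Each treatment had 2 input libraries and 2 IP libraries, 8 samples in all from the same cell line. The methods call the replicates biological, but neither they nor the labels say that these came from separate cultures, so the error terms describe the spread between these libraries, which may be technical.

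Chemokines are small secreted proteins that direct the movement of leukocytes along concentration gradients. The CXC chemokines with a glutamate-leucine-arginine (ELR) sequence before their first cysteines bind the receptors CXCR1 and CXCR2 on neutrophils, CCL20 binds CCR6 on lymphocytes and dendritic cells, and CXCL16 is a transmembrane chemokine whose receptor is CXCR6. In epithelial cells, transcription of many ELR chemokines and of CCL20 is induced by NF-kB, and their mRNAs are short-lived because of AU-rich elements in the 3′UTR.

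mRNA levels were FPKM, fragments scaled by transcript length and by the total mapped, in the 4 input libraries. Between 14566 and 14816 genes had a level above 0 in a library, and depth estimated from the spacing of low FPKM values was 20300000 to 27400000 fragments per input library. The depth of the IP libraries was unknown. Of 8 epithelial markers, 5 passed the filter of a mean of 1 FPKM, among them KRT8 at 1941 to 2286 FPKM and EPCAM at 162 to 184 FPKM, and none of the 5 passed the test for a change. The intestinal markers VIL1 and LGALS4 were at or below 0.251 FPKM and CDX1 was listed at 0 in all libraries, so the intestinal markers on the list were absent or nearly so. Of 11 leukocyte markers, 10 stayed below 1 FPKM in every library, including the neutrophil genes S100A8, S100A9 and FCGR3B, all listed at 0. The exception was CD68, at 7.15 to 9.30 FPKM. The summed leukocyte markers ranged from 7.40 to 9.41 FPKM in Control and from 9.06 to 9.29 FPKM in F. nucleatum libraries. Of 8 fibroblast and endothelial markers, 7 stayed below 1 FPKM, and their sum was 3.90 to 4.58 FPKM in Control and 5.24 to 5.89 FPKM in F. nucleatum libraries, most of it from COL1A1 at 3.78 to 5.72 FPKM. The part of these small sums in the chemokine levels was not tested.

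CXCL8, also called interleukin 8 and a strong attractant of neutrophils, went from a low level to the highest of all 8. Its level was 0.396 FPKM in Control 1 and 0.335 FPKM in Control 2, against 40.8 FPKM in F. nucleatum 1 and 38.9 FPKM in F. nucleatum 2. The F. nucleatum mean of 39.8 ± 1.30 FPKM was 109 times the Control mean of 0.365 ± 0.0433 FPKM (SD, n = 2), and the ratio of single libraries ranged from 98.3 to 122. Both F. nucleatum libraries were high, both Control libraries were low, and the spread within a group was small beside the gap. On the log2(FPKM + 1) scale, which understates the change of low genes, the difference was 4.90 with a standard error (SE) of 0.08. At the estimated depth the Control values rested on about 14.5 and 13.6 fragments and the F. nucleatum values on about 1832 and 1297. In bulk RNA such as this, fewer cells of a type and less RNA per cell cannot be told apart.

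CXCL1, a ligand of CXCR2, was the next highest ELR gene. It measured 0.955 and 0.392 FPKM in the Control libraries and 31.3 and 31.8 FPKM in the F. nucleatum libraries. The means of 0.674 ± 0.398 and 31.5 ± 0.325 FPKM (SD, n = 2) differed 46.8-fold, with single pairs of libraries between 32.8 and 81.0. That range came from the Control libraries, which differed from each other more for CXCL1 than for the other ELR genes and rested on about 25.0 and 11.4 fragments. The difference on the log2 scale was 4.30 (SE 0.16).

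CXCL2 and CXCL3, close relatives of CXCL1 that act on the same receptor, followed at lower levels. CXCL2 measured 0.666 and 0.622 FPKM in Control libraries and 11.4 and 12.8 FPKM with F. nucleatum, a ratio of 17.1 to 20.6 over single pairs of libraries and a log2 difference of 2.99 (SE 0.10). CXCL3 measured 0.323 and 0.303 FPKM in Control libraries and 6.39 and 6.15 FPKM with F. nucleatum, a ratio of 19.0 to 21.1 over single pairs of libraries and a log2 difference of 2.47 (SE 0.09). Both genes were low in both Control libraries and high in both F. nucleatum libraries, with no overlap. The ratios of CXCL2 and CXCL3 overlapped, whereas CXCL3 had the smaller log2 difference, on a scale where adding 1 FPKM weighs more on the lower gene.

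The sequence identity within this trio bears on how far its values are separate measurements. The coding sequences were 93.5% identical between CXCL1 and CXCL2, 94.4% between CXCL2 and CXCL3 and 90.7% between CXCL1 and CXCL3. Of all overlapping windows of 75 nt in an mRNA, 0.273% in CXCL1, 2.50% in CXCL2 and 2.30% in CXCL3 were also found in another ELR mRNA. No window of CXCL8 was. These are shares of window positions, and the share of the mRNA length that such windows cover is larger. Shorter reads could be split among the trio by the counting, so the order of CXCL1, CXCL2 and CXCL3 is less certain than that of CXCL8.

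CXCL5 and CXCL6, the remaining ELR genes, were listed at 0 FPKM in all 4 libraries. Entries at 0 in every library made up 19.4% of the table. CXCL5 and CXCL6 are 87.5% identical to each other in coding sequence and 46.6% to 58.5% identical to the other ELR genes. No fold can be given for them.

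CCL20, which attracts CCR6-bearing lymphocytes and dendritic cells, was 0.107 FPKM in Control 1, about 1.98 fragments, and listed at 0 in Control 2. It reached 7.23 and 7.08 FPKM in the F. nucleatum libraries, about 165 and 120 fragments. The log2 difference was 2.95 (SE 0.10), but with a Control library at 0 its size depends on the value added before the logarithm and no ratio is given.

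CXCL16 behaved unlike these genes. It was already at 14.0 and 14.4 FPKM in Control and measured 15.6 and 15.8 FPKM in F. nucleatum libraries, a ratio of 1.08 to 1.13 over single pairs of libraries and a log2 difference of 0.13 (SE 0.07). The F. nucleatum libraries were both above the Control libraries. CXCL16 overlaps MED11 by 76 bp and ZMYND15 by 96 bp on the opposite strand, and whether the counting used strand was not given in the sources used here.

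Counted over the set, 6 of the 8 genes passed the filter of a mean of at least 1 FPKM, and 5 of those 6 had a Control mean under 1 FPKM, so they passed only through the F. nucleatum libraries. The log2 difference was over 1 for those 5, against 0.406% of the 11088 genes past the filter, and both F. nucleatum libraries lay above both Control libraries for 6, against 26.1% of all genes. Both counts follow from how the genes were chosen, and nothing is read from them. The median log2 difference of all genes was 0.01.

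The order of the levels differed between the groups. In Control cells CXCL16 was highest, followed by CXCL1 and CXCL2, whose libraries overlapped, then by CXCL8, CXCL3 and CCL20. CXCL1 in Control 2 (0.392 FPKM) was also just below CXCL8 in Control 1 (0.396 FPKM). Within each Control library CXCL1 was above CXCL8. In F. nucleatum cells the order was CXCL8, CXCL1, CXCL16, CXCL2, CCL20 and CXCL3, and each of these was above the next in both libraries. The FPKM of the 6 ELR genes summed to 2.34 and 1.65 in the Control libraries, and to 89.8 and 89.7 in those with F. nucleatum. CXCL16 made up 85.1% and 89.7% of the summed FPKM of the 8 genes in the Control libraries, against 13.8% and 14.0% with F. nucleatum. Within the ELR sum, the share of CXCL8 was 16.9% and 20.3% in Control libraries and 45.4% and 43.4% with F. nucleatum. The share of CXCL2 was 28.4% and 37.7% in Control libraries and 12.6% and 14.3% with F. nucleatum. CXCL1 held 40.8% and 23.7% of the ELR sum in Control libraries and 34.9% and 35.4% with F. nucleatum, so its groups overlapped.

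The 6 ELR genes lie in one cluster of 359 kb on chromosome 4 (GRCh37, the assembly also called hg19). CXCL8 is at chr4:74606236-74609433, CXCL6 at chr4:74702357-74714781 and CXCL1 at chr4:74735110-74737025, all on the plus strand. CXCL5 at chr4:74861359-74864394, CXCL3 at chr4:74902306-74904524 and CXCL2 at chr4:74962757-74964913 are on the minus strand. The high genes of the F. nucleatum libraries thus stood on both strands and at both ends of the cluster, with genes listed at 0 between them. Among the 10 protein-coding genes that GENCODE places in this span, the platelet chemokine genes PF4, PF4V1 and PPBP were also listed at 0 in all libraries. ENSG00000288796, also among the 10, had no entry under that name in the mRNA table. The nearest gene outside the cluster on the CXCL8 side, RASSF6, measured 0.221 and 0.215 FPKM in Control libraries and 0.359 and 0.251 FPKM with F. nucleatum. On the CXCL2 side MTHFD2L, a mitochondrial folate enzyme, measured 1.80 and 1.61 FPKM in Control libraries and 2.23 and 1.65 FPKM with F. nucleatum, and its log2 difference of 0.11 (SE 0.13) did not pass the limma test (adjusted p = 0.710). CCL20 lies on chromosome 2 at chr2:228670455-228682280 (plus strand) and CXCL16 on chromosome 17 at chr17:4636828-4643223 (minus strand).

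The start-site sequences of the genes were compared, since several of these genes were high in the same libraries. Of the 8 genes, 7 were matched in the RefSeq promoter table (250 bases before to 50 after the start, GRCh38.p14), and each of the 7 was found once in GRCh37, which gave the coordinates below. The letters GGAATTTCC, a form of the kB sequence that NF-kB dimers bind, were searched on both strands and were present in 6 of the 7, against 0.472% of 27305 promoters of the same length. The motifs were chosen with earlier results of these data known. One window of 30 bases per gene is shown 5′ to 3′ on the strand of the gene, with the searched letters in capitals. The reason is that the ELR genes share the element at nearly the same distance from the RefSeq start.
CXCL8: tgcaaatcgtGGAATTTCCtctgacataat
CXCL1: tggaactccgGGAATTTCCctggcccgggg
CXCL2: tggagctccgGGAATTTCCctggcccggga
CXCL3: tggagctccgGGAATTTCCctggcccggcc
CXCL5: atgagttcagGGAATTTCCccagcatccca
CXCL6: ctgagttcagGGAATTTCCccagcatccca
CCL20: gttgatcaatGGGGAAAACCccatgtggca

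The windows are at chr4:74606185-74606214 (plus) for CXCL8, chr4:74735022-74735051 (plus) for CXCL1, chr4:74964970-74964999 (minus) for CXCL2, chr4:74904465-74904494 (minus) for CXCL3, chr4:74864465-74864494 (minus) for CXCL5, chr4:74702296-74702325 (plus) for CXCL6 and chr2:228678467-228678496 (plus) for CCL20. The first letter of GGAATTTCC stood 91 bases before the RefSeq start in CXCL8, 78 in CXCL1, 77 in CXCL2, 78 in CXCL3, 90 in CXCL5 and 89 in CXCL6. CXCL5 and CXCL6, listed at 0, held it as did the 4 ELR genes that were high. CCL20 did not hold it, and its capitals mark a looser kB form, GGG and CC separated by 5 bases of any kind on either strand. The match shown is 1 of 5 in the CCL20 promoter. It stood 81 bases before the RefSeq start, which lies inside the gene as GENCODE draws it. The RefSeq start and the window shown for CXCL3 also lie inside its gene as drawn. In CXCL8, CXCL6 and CXCL2 the RefSeq start lies inside the gene as drawn, and the window shown lies before the gene. The distances given therefore depend on the start used. That looser form was in all 7 and also in 58.0% of all promoters. It overlapped GGAATTTCC in CXCL1, CXCL2, CXCL3, CXCL5 and CXCL6. The AP-1 type letters TGANTCA were found in CXCL8 alone, 137 bases before the start, against 7.76% of all promoters. A match of letters is not a measured binding site. The 300-base windows were 82.5% identical between CXCL1 and CXCL3 and 83.1% between CXCL5 and CXCL6, so these matches are not separate observations.

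The 3′UTRs were described by the AU-rich pentamer ATTTA on the mRNA strand, with overlapping matches counted, in the canonical transcripts of GENCODE. CXCL2 held 10 in 716 nt (14.0 per kb), CXCL3 7 in 673 nt (10.4 per kb), CXCL1 6 in 772 nt (7.77 per kb), CXCL8 9 in 1252 nt (7.19 per kb) and CCL20 3 in 473 nt (6.34 per kb). The median of 18029 genes was 1.67 per kb. A density at least as high was found in 0.383% of genes for CXCL2, 0.887% for CXCL3, 2.50% for CXCL1, 3.34% for CXCL8 and 4.96% for CCL20. CXCL5 (5.51 per kb) and CXCL6 (5.36 per kb), listed at 0, were also dense. CXCL16 held 1 pentamer in 970 nt (1.03 per kb), a density that 61.3% of genes reached. The longer form TTATTTATT occurred 5 times in CXCL2, 3 times in CXCL1 and once each in CXCL3 and CXCL8, and was present in 8.96% of genes. The densest window of 30 bases in the 5 genes with high F. nucleatum levels and in CXCL16 is shown, with each ATTTA in capitals, to set the tandem repeats of CXCL2 and CXCL1 beside the single element of CXCL16.
CXCL2: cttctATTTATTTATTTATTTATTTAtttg
CXCL1: aagtcttctATTTATTTATTTAttcattag
CXCL8: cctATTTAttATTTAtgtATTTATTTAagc
CXCL3: gttctacttATTTAtgtATTTAtttttgaa
CCL20: tgtattttatgttATTTAtagctgtaggtt
CXCL16: tcttaggcccctcATTTAaaaacggttata

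These windows are at chr4:74963303-74963332 (minus) for CXCL2, chr4:74736390-74736419 (plus) for CXCL1, chr4:74608828-74608857 (plus) for CXCL8, chr4:74902799-74902828 (minus) for CXCL3, chr2:228681998-228682027 (plus) for CCL20 and chr17:4637586-4637615 (minus) for CXCL16, all in GRCh37. The window of CXCL2 holds 5 overlapping pentamers, a number that 0.244% of genes reach in any 30 bases. CXCL8 holds 4 (reached by 0.743%) and CXCL1 holds 3 (reached by 3.17%). The half-life of these mRNAs was not measured.

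Other chemokines were close to absent. Of the 36 other chemokine genes in the table, 29 were listed at 0 in all 4 libraries and 34 stayed below 1 FPKM in all, so none passed the filter and none was tested. The exceptions were CCL26, an eotaxin, at 0.119 and 1.39 FPKM in Control libraries and 1.20 and 1.15 FPKM with F. nucleatum, and CCL27, a skin chemokine, at 0.464 and 0 FPKM in Control libraries and 0.206 and 1.12 FPKM with F. nucleatum. In both genes the groups overlapped. CXCL9, CXCL10 and CXCL11, chemokines known as targets of interferon, were listed at 0 throughout, as were CCL2, CCL3 and CCL4, which attract monocytes.

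Chemokine receptors were low as well, with 23 of 23 below 1 FPKM in every library and 9 listed at 0. The receptors of the ELR chemokines were 0.0146 FPKM or less (CXCR1) and listed at 0 (CXCR2). CCR6, the receptor of CCL20, was at 0.0704 and 0 FPKM in Control libraries, against 0 and 0.0609 FPKM with F. nucleatum. CXCR6, the receptor of CXCL16, was at 0 and 0.0827 FPKM in Control libraries, against 0.145 and 0.0920 FPKM with F. nucleatum. Of the proteases that trim or shed chemokines, 3 of 4 were tested and none passed. ADAM10, which sheds CXCL16 from the membrane, was at 17.3 and 18.1 FPKM in Control libraries, against 19.0 and 19.2 FPKM with F. nucleatum (log2 difference 0.10, SE 0.06, adjusted p = 0.517). ADAM17 (log2 difference -0.03, SE 0.08, adjusted p = 0.878) and DPP4 (0.21, SE 0.10, adjusted p = 0.411) did not pass either.

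Of the 10 NF-kB subunits and inhibitors, 9 were tested and 3 rose, none fell and 6 did not pass, where 0.667% of the 11088 tested genes rose and 0.135% fell, 0.803% in all (limma, Benjamini-Hochberg adjusted p under 0.05). The median log2 difference of the 9 was 0.45, against 0.01 for all genes. The list was chosen with earlier results of these data known, so its count and median are a description. NFKBIA, the inhibitor that holds NF-kB in the cytoplasm and is itself a target gene of it, measured 19.6 and 20.7 FPKM in Control libraries and 84.8 and 89.1 FPKM with F. nucleatum (log2 difference 2.06, SE 0.06, adjusted p = 0.000524). NFKBIZ, a nuclear inhibitor-like cofactor, measured 0.647 and 0.996 FPKM in Control libraries and 4.71 and 4.24 FPKM with F. nucleatum (1.59, SE 0.13, adjusted p = 0.00994). TNFAIP3, the ubiquitin-editing inhibitor A20, measured 0.816 and 0.838 FPKM in Control libraries and 3.93 and 4.89 FPKM with F. nucleatum (1.56, SE 0.12, adjusted p = 0.00852). NFKBIZ and TNFAIP3 had Control means under 1 FPKM (0.821 and 0.827), so the filter kept them only through the F. nucleatum libraries. In the limma fit without the filter their adjusted p was 0.0478 and 0.0431. All 3 that passed are inhibitors or cofactors rather than DNA-binding subunits, but this split rests on the threshold. For each subunit both F. nucleatum libraries also lay above both Control libraries, as for 26.1% of all genes. Of the subunits, RELB (0.59, SE 0.14, adjusted p = 0.208), NFKB2 (0.45, SE 0.09, adjusted p = 0.165) and NFKB1 (0.28, SE 0.08, adjusted p = 0.278) did not pass. Neither did RELA (0.20, SE 0.08, adjusted p = 0.348) or the inhibitor NFKBIB (0.01, SE 0.06, adjusted p = 0.961). REL was not tested. Without F. nucleatum 1, NFKBIZ no longer passed, and without F. nucleatum 2 neither NFKBIZ nor TNFAIP3 passed (adjusted p up to 0.116 and 0.0907).

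All 9 regulators that bind AU-rich elements or degrade chemokine mRNAs were tested, and 3 rose, none fell and 6 did not pass, where 0.667% of all tested genes rose and 0.135% fell. Their median log2 difference was 0.17, against 0.01 for all genes. This list, too, was chosen with earlier results of these data known, so its count and median are a description. ZFP36, or tristetraprolin, which recruits the decay machinery to AU-rich elements, measured 49.0 and 48.9 FPKM in Control libraries and 88.7 and 90.9 FPKM with F. nucleatum (log2 difference 0.86, SE 0.05, adjusted p = 0.00485). ZC3H12A, the endonuclease Regnase-1, measured 7.98 and 7.67 FPKM in Control libraries and 13.8 and 14.0 FPKM with F. nucleatum (0.75, SE 0.07, adjusted p = 0.0174). ZFP36L1, a relative of ZFP36, measured 40.1 and 42.3 FPKM in Control libraries and 60.9 and 64.9 FPKM with F. nucleatum (0.60, SE 0.06, adjusted p = 0.0265). HNRNPD, also called AUF1 (-0.16, SE 0.06, adjusted p = 0.353), KHSRP (-0.06, SE 0.06, adjusted p = 0.695) and TIAL1 (0.19, SE 0.11, adjusted p = 0.489) did not pass. None of the 3 genes passed without F. nucleatum 1 or without F. nucleatum 2, where adjusted p reached 0.109 for ZFP36, 0.196 for ZC3H12A and 0.268 for ZFP36L1. ZC3H12A and ZFP36L1 did not pass without the filter on low genes either, nor did ZFP36L1 in the fit without a trend.

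The tested genes outside the set whose pattern was most like that of CXCL8 were found by the Euclidean distance between log2(FPKM + 1) values over the 4 input libraries, each gene taken relative to its Control mean. They were PRNP at a distance of 3.04, NFKBIA at 4.03, NUAK2 at 4.11, BIRC3 at 4.34 and IL6ST at 4.50. Taken this way, the distance mostly reflects the size of the rise in the same 4 libraries. The adjusted p-values of these genes are therefore not separate support for their likeness to CXCL8. Of the set, CXCL1 was at 0.903, CXCL2 at 2.71, CCL20 at 2.76, CXCL3 at 3.44 and CXCL16 at 6.75. PRNP, the gene of the prion protein, measured 6.63 and 6.51 FPKM in Control libraries and 51.6 and 48.4 FPKM with F. nucleatum (log2 difference 2.75, SE 0.07, adjusted p = 0.000256). BIRC3, an inhibitor of apoptosis, measured 0.429 and 0.449 FPKM in Control libraries and 4.17 and 4.08 FPKM with F. nucleatum (1.83, SE 0.09, adjusted p = 0.00183). NUAK2, BIRC3 and IL6ST were under 1 FPKM in both Control libraries, so the filter kept them only through the F. nucleatum libraries.

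The last comparison asked whether the m6A peaks of these mRNAs differed between the groups. The only peak named for any of the 8 genes was in CXCL1, in the list of F. nucleatum 1 and in no other list, at chr4:74735109-74735198 (plus strand). It was 90 nt long, began 1 nt before the annotated start, covered all 78 nt of the 5′UTR and reached 11 nt into the coding sequence. It held no GGAC, the core of the usual m6A consensus. Its deposited p-value, read as uncorrected, was 7.9e-06, and 64.4% of the 18365 peaks in that list had a lower one. F. nucleatum 2 had no CXCL1 peak. CXCL1 mRNA was as high there (31.8 FPKM) as in F. nucleatum 1 (31.3 FPKM), but rested on fewer estimated input fragments, about 757 against 1006. The CXCL1 peak was the only region of the 8 genes. With that peak in 1 list, no region of the 8 genes had a peak in both F. nucleatum lists and no Control list. Nothing is read from this. Over all genes, 524 of 22001 regions (2.38%) met that criterion, as did 124 of 11086 tested gene symbols (1.12%).

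CXCL8, CXCL2, CXCL3, CXCL5, CXCL6, CXCL16 and CCL20 had no peak on their own strand in any of the 4 lists. Of all 11086 tested gene symbols, 16.1% had no peak in any list, 5.48% had one in exactly 1 list and 68.7% had one in all 4. The share with a peak differed with mRNA level and length. Among genes with an mRNA under 2500 nt, as all 8 are, a peak was present in 72.4% of those at 20 to 80 FPKM in F. nucleatum 1, the range that held CXCL8 and CXCL1, and in 71.5% in F. nucleatum 2. At 5 to 20 FPKM, the range of CXCL2, CXCL3, CXCL16 and CCL20 in the F. nucleatum libraries, the shares were 71.6% and 70.0%. The mRNAs of the 5 genes with high F. nucleatum levels are only 834 to 1642 nt long. Shares for all mRNAs under 2500 nt are thus not closely matched to their length. Above 0 and below 1 FPKM, where CXCL1, CXCL2, CXCL3 and CXCL8 stood in both Control libraries and CCL20 in Control 1, the shares were 10.0% in the Control 1 list and 11.5% in the Control 2 list. The absence of a peak on these genes there was thus what most genes of that level showed. Genes listed at 0, such as CXCL5, CXCL6 and CCL20 in Control 2, are not in these shares. CXCL16, at 14.0 to 15.8 FPKM in all libraries, was the only one of the 8 that was above 1 FPKM in both groups, and it had no peak of its own in either. At its far end, 49 to 78 bases of the gene lay under peaks called for MED11 on the opposite strand in all 4 lists.

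**Figure D1:**
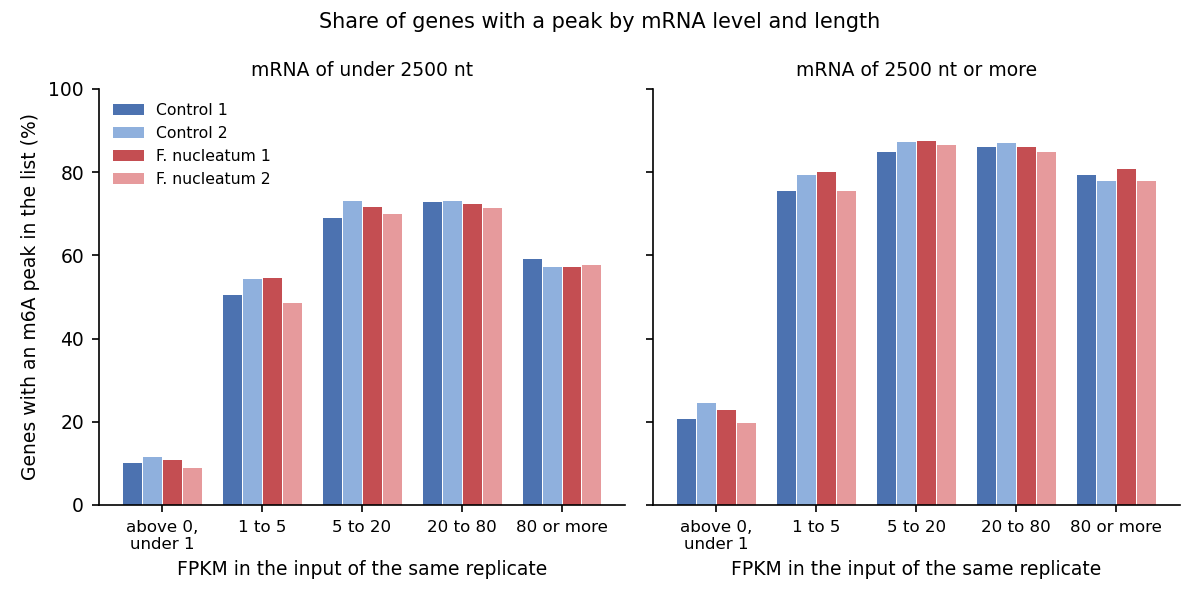
Share of genes (%) with an m6A peak in the list of each replicate, by the FPKM of the gene in the input of the same replicate, for mRNAs under 2500 nt and of 2500 nt or more, with genes listed at 0 left out. For shorter mRNAs the share rises from about 10.0% between 0 and 1 FPKM in Control 1 to 72.8% at 20 to 80 FPKM and is lower again at 80 FPKM or more, and the 4 lists are alike.

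The density of GGAC letters in the mRNAs was low for some of the genes and near or above the median of all genes for others. CXCL1 and CXCL2 held 2 each (1.70 and 1.79 per kb), CXCL3 held 3 (2.79 per kb), CXCL8 held 5 (3.05 per kb) and CCL20 held 3, all in the 3′UTR (3.60 per kb). CXCL5 (1.23 per kb) and CXCL6 (1.95 per kb) were likewise below the median of 3.75 per kb over 19528 genes. CXCL16, at 13 sites and 5.59 per kb, was above that median and had no peak. Of the 6 NF-kB and decay genes that rose, 5 had a peak in all 4 lists and NFKBIZ had none in any list. Over all tested genes 68.7% had a peak in all 4, a share not matched for mRNA level or length. The decay regulators that did not pass also had a peak in all 4 lists. The lists give no value where no peak was called, so how much m6A the chemokine mRNAs carried could not be measured.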

How the data were processed

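According to the methods and the submitters' notes, the authors trimmed reads with Trim Galore 0.3.3 or cutadapt and aligned them to hg19 with HISAT2 2.1.0. The deposited FPKM values were computed by the authors with StringTie from the 4 input libraries. Each deposited peak list compared the IP with the input of 1 replicate, and its score was read as an uncorrected p-value. The methods name MACS2, whereas the layout resembles that of exomePeak, and which program was used was not settled. FPKM are not counts, so a count model was not used. No replicates were pooled, and no pair of libraries held identical values.

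Groups were taken from the sample labels. The filter kept genes whose mean over the input libraries reached 1 FPKM. These were fitted with limma 3.58.1 (lmFit, eBayes with trend; R 4.3.3) on log2(FPKM + 1), with no covariate and Benjamini-Hochberg adjustment over 11088 genes. Peaks on the same strand that overlapped by 1 bp were merged. Gene models were those of GENCODE release 44 lifted to GRCh37, which matched 18421 symbols. Depth was estimated from single-transcript genes whose lowest FPKM values are whole multiples of 1 fragment (23.5% to 29.9% of genes within 5% of a whole number, against 10% if even). Fragment numbers are estimates, which assume the canonical transcript length. The statistics were tested on simulated data. Python 3.11.15 was used with pandas 2.3.3, NumPy 2.4.6, SciPy 1.17.1 and Biopython 1.88, and plots were drawn with matplotlib 3.10.9. The chemokine genes, the gene lists and the motifs were chosen with earlier results of these data known. In a list without chemokines of the set, the named genes were those called, up to 4, and up to 3 others by mean FPKM. Genes outside these rules (CXCL9 to CXCL11, CCL2 to CCL4, CCL26, CCL27, RELB, NFKB1, REL, the receptors of the 8 chemokines) were named for their role or their values. Alternatives were a pseudocount of 0.1, no filter, quantile normalization, no trend, a replicate block, each library left out, a peak p-value of at most 1e-05 and a reciprocal overlap of 50%.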

Additional observations from a re-analysis of the deposited data

How the results depend on the processing

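The number of the 8 chemokine genes with a log2 difference over 1 was 5 in the main analysis and under all 9 alternatives, and no log2 difference changed sign. The size moved most with a pseudocount of 0.1, which gave 6.43 for CXCL8, 5.46 for CXCL1, 4.03 for CXCL2, 3.95 for CXCL3 and 5.66 for CCL20. Of 82 chemokine, receptor, protease, NF-kB and decay genes on the lists (cell type markers apart), 21 were tested and 6 of those called, where 0.803% of all tested genes were, and the count was 6 with a pseudocount of 0.1 or quantile normalization, 5 without the trend and 4 without the filter. Leaving out 1 library gave 1 to 7, with 2 left without F. nucleatum 1 (NFKBIA and TNFAIP3) and 1 without F. nucleatum 2 (NFKBIA), while NFKB2 was added without Control 1. Fewer libraries were then in the fit, and the lone library of a group was assumed to vary like the others. The lists were chosen with earlier results of these data known, so the numbers called are a description. Equal replicate numbers did not mark paired samples as far as the labels say (r of deviations 0.0243 over 11088 genes), and the fit with the replicate block called 6, the same 6 genes. Regions of the 8 genes with a peak in both F. nucleatum lists and no Control list numbered 0, and 0 to 1 when a library was left out: without F. nucleatum 2 the single CXCL1 peak met the criterion. Control values of CXCL8, CXCL2, CXCL3 and CCL20 rest on at most about 17.2 fragments, and the IP depth is unknown.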
